A study of Mus musculus with 12 samples.

Results

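Creatine and N-acetylaspartate metabolism is described here through 8 genes, Gatm, Gamt, Slc6a8, Ckb, Ckmt1, Nat8l, Slc13a3 and Aspa, out of 33864 loci in the expression table. The genes were chosen by the FPKM of Gamt, which was low in the ErbB2V664E mutants, together with the pathway it belongs to, so every value of the 8 genes in that comparison is a description without a test. Each gene was read from the locus that carries its symbol, and where there were several loci (Slc6a8 and Nat8l) from the one with the highest mean level. All 8 loci carried 1 symbol and all 8 passed the filter for low values, which kept 13803 loci that reached 1 FPKM in at least 3 libraries.

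RNA with a poly(A) tail was sequenced from subcortical white matter, with 12 mice in 4 groups of 3. The dnEGFR mutants (Sox10-tTA;TRE-dnEGFR) and their TRE-dnEGFR littermate controls were sampled at P35 after doxycycline from P21 to P35. The ErbB2V664E mutants (Sox10-tTA;TRE-ErbB2V664E) and their TRE-ErbB2V664E littermate controls were sampled at P30 after doxycycline from P21 to P30. Sox10-tTA is a tetracycline transactivator under control of Sox10, a transcription factor gene of the oligodendrocyte lineage. dnEGFR is an epidermal growth factor receptor altered to block signalling of its partners (dominant-negative), and ErbB2V664E is an activated form of the receptor ErbB2. All 4 groups carried a TRE transgene and received doxycycline. A group with the transactivator but no responder was not analysed here, so effects of Sox10-tTA and of the transgene cannot be told apart. The labels do not say in which direction doxycycline switched the transgenes. The lines also differ in age and in days of doxycycline.

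Creatine is made in a pair of steps. Gatm (glycine amidinotransferase) joins arginine and glycine to guanidinoacetate, and Gamt (guanidinoacetate N-methyltransferase) methylates it with S-adenosylmethionine; in the brain Gamt protein is known to be prominent in oligodendrocytes. Slc6a8 carries creatine into cells, and the creatine kinases Ckb in the cytosol and Ckmt1 in mitochondria use it to store and hand on phosphate from ATP. N-acetylaspartate is made from aspartate and acetyl-CoA by Nat8l, mainly in neurons. Oligodendrocytes hold Aspa, the aspartoacylase that cleaves it to acetate and aspartate, and Slc13a3 is a sodium-coupled dicarboxylate transporter that takes up N-acetylaspartate and is known from astrocytes.

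The levels are FPKM, that is, fragments divided by transcript length and by the mapped fragments of the library, so genes can be compared per length. Depth was estimated at 16596889 to 24739627 fragments a library, and the FPKM of a library summed to 117363 to 134410. Averaged over the 12 libraries, Ckb stood highest at 426 FPKM, followed by Ckmt1 at 44.8, Nat8l at 21.5, Gatm at 20.3 and Slc6a8 at 11.8 FPKM. Gamt was at 5.95 FPKM, Aspa at 2.74 FPKM and Slc13a3 at 1.39 FPKM. At the length of the longest annotated transcript this is 7316 to 19126 fragments a library for Ckb, but 55 to 242 for Gamt, 68 to 509 for Aspa and 42 to 180 for Slc13a3, so counting error weighs most on these 3 genes. The tissue held myelin transcripts in every group: Mbp, which encodes myelin basic protein, averaged from 483 to 716 FPKM over the groups. The summed FPKM of 8 neuron markers lay between 368 and 691 and that of 4 choroid plexus markers between 10.1 and 705, so transcripts of other cells and tissue were present at varying levels. Their part in the results below was not tested.

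**Figure D1:**
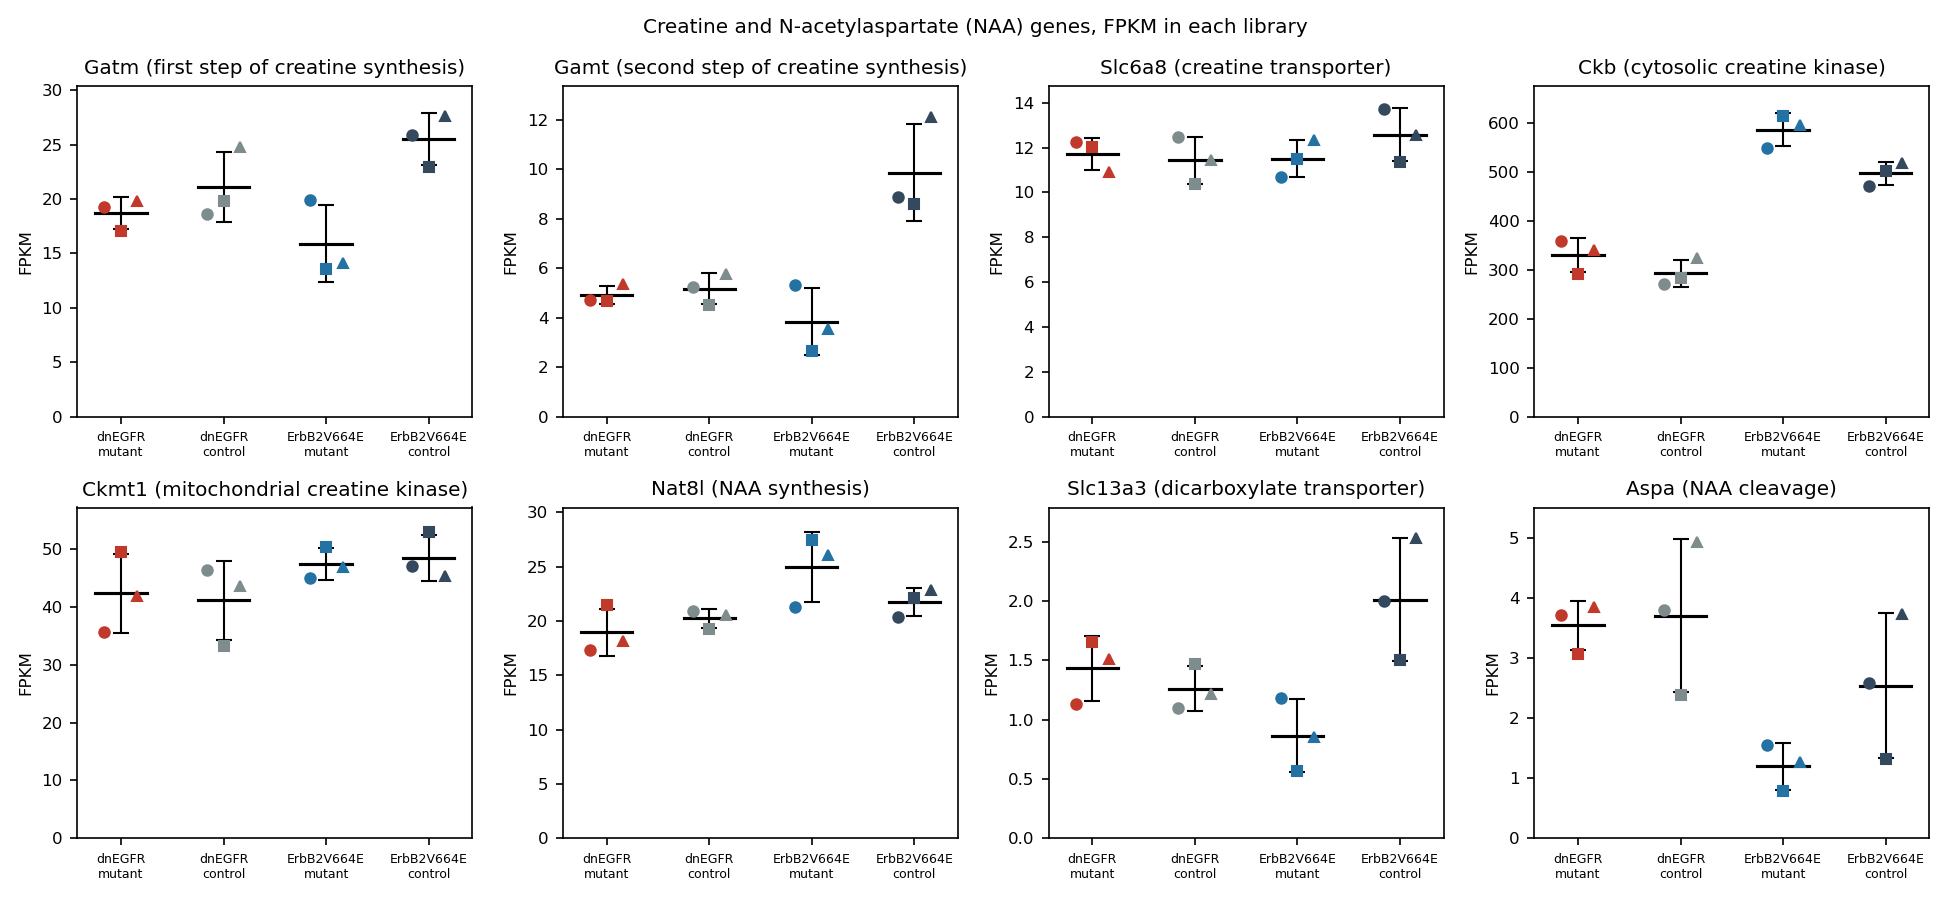
FPKM of the 8 genes in each library, by group, with the mean (line) and SD (bar) of 3 mice; circles, squares and triangles mark litters 1, 2 and 3 of a line. The 3 ErbB2V664E mutants lie below their 3 controls for Gatm, Gamt and Slc13a3 and above them for Ckb, while the dnEGFR groups overlap in every panel.

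Transcripts for both steps of creatine synthesis were lower in the ErbB2V664E mutants. Gamt was at 5.33, 2.67 and 3.53 FPKM in ErbB2V664E mutants 1, 2 and 3, against 8.89, 8.60 and 12.1 FPKM in their littermate controls 1, 2 and 3. Every mutant lay below every control, and mutant 1 was the nearest to the controls. The mutant mean was 3.84 ± 1.36 FPKM and the control mean 9.87 ± 1.96 FPKM (SD, n = 3 each), which puts the mutants at 38.9% of the controls. Litter by litter the mutant held 59.9%, 31.0% and 29.1% of its control. On the scale of log2(FPKM + 1), which understates the change of weakly expressed genes, the difference was -1.19 (SE 0.19).

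Gatm was at 19.9, 13.6 and 14.1 FPKM in the ErbB2V664E mutants, against 25.9, 22.9 and 27.6 FPKM in the controls. The groups did not overlap here either, and mutant 1 again stood closest to the controls. The means were 15.9 ± 3.54 FPKM in mutants and 25.5 ± 2.39 FPKM in controls, a log2 difference of -0.67 (SE 0.16). Gatm was thus less reduced than Gamt, an order that the choice of the genes by a low Gamt favours. The ratio of Gatm to Gamt was 4.28 ± 0.71 in ErbB2V664E mutants and 2.62 ± 0.32 in their controls. It ranged from 3.74 to 5.09 in mutants and from 2.28 to 2.91 in controls. In the dnEGFR line this ratio was 3.81 ± 0.22 in mutants and 4.08 ± 0.45 in controls, and the ranges overlapped.

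The creatine transporter and the kinases did not share that pattern. Slc6a8 was at 10.7, 11.5 and 12.3 FPKM in ErbB2V664E mutants, against 13.7, 11.4 and 12.6 FPKM in controls. The groups overlapped, with a log2 difference of -0.11 (SE 0.10; -0.18 to -0.05 with 1 library left out). Ckb was at 548, 612 and 596 FPKM in ErbB2V664E mutants, against 470, 502 and 517 FPKM in controls. Here every mutant lay above every control, with means of 585 ± 33.2 FPKM in mutants and 497 ± 23.8 FPKM in controls and a log2 difference of 0.24 (SE 0.10). Ckmt1 was at 44.9, 50.4 and 46.9 FPKM in mutants, against 47.1, 52.9 and 45.2 FPKM in controls, and the groups overlapped (log2 difference -0.03, SE 0.15). The ratio of Ckb to Ckmt1 was 12.4 ± 0.298 in ErbB2V664E mutants and 10.3 ± 1.006 in controls.

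Among the N-acetylaspartate genes, the mean in ErbB2V664E mutants was higher for Nat8l and lower for Aspa and Slc13a3. Only for Slc13a3 did the groups not overlap. Nat8l was at 21.3, 27.4 and 26.1 FPKM in ErbB2V664E mutants, against 20.3, 22.1 and 22.9 FPKM in controls. The groups overlapped, since mutant 1 lay below controls 2 and 3, although each mutant was above its own littermate (log2 difference 0.18, SE 0.11; 0.11 to 0.29 with 1 library left out). Aspa was at 1.54, 0.779 and 1.26 FPKM in mutants, against 2.58, 1.31 and 3.72 FPKM in controls. Each mutant was below its littermate, but mutant 1 was above control 2, so the groups overlapped (log2 difference -0.64, SE 0.27). The Aspa difference leaned on single controls, at -0.41 without control 3 and -0.92 without control 2. Slc13a3 was at 1.18, 0.564 and 0.855 FPKM in mutants, against 2.00, 1.502 and 2.53 FPKM in controls. Every mutant was below every control, with means of 0.866 ± 0.307 FPKM in mutants and 2.01 ± 0.515 FPKM in controls and a log2 difference of -0.69 (SE 0.16), or -1.15 with a pseudocount of 0.1 in place of 1.

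In the ErbB2V664E line 3 of the 8 genes thus had all mutants below all controls, where 8.96% of the 13803 loci did, and 1 had all mutants above all controls, where 9.28% did. In limma's moderated test over all loci (Benjamini-Hochberg adjusted, threshold 0.05), 0.275% of loci were called in this line, 38 in all and 0.138% as lower, and Gamt was the 1 gene of the 8 among them. This count rests on the choice of genes and is not a test of them. It also depends on the fit: none of the 8 was called with litter as a block, with no filter, with a filter of 5 FPKM, with the line fitted alone, or when any library of the line other than mutant 1 was left out. Without mutant 1, 235 loci were called, Gamt and Gatm among them.

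**Figure D2:**
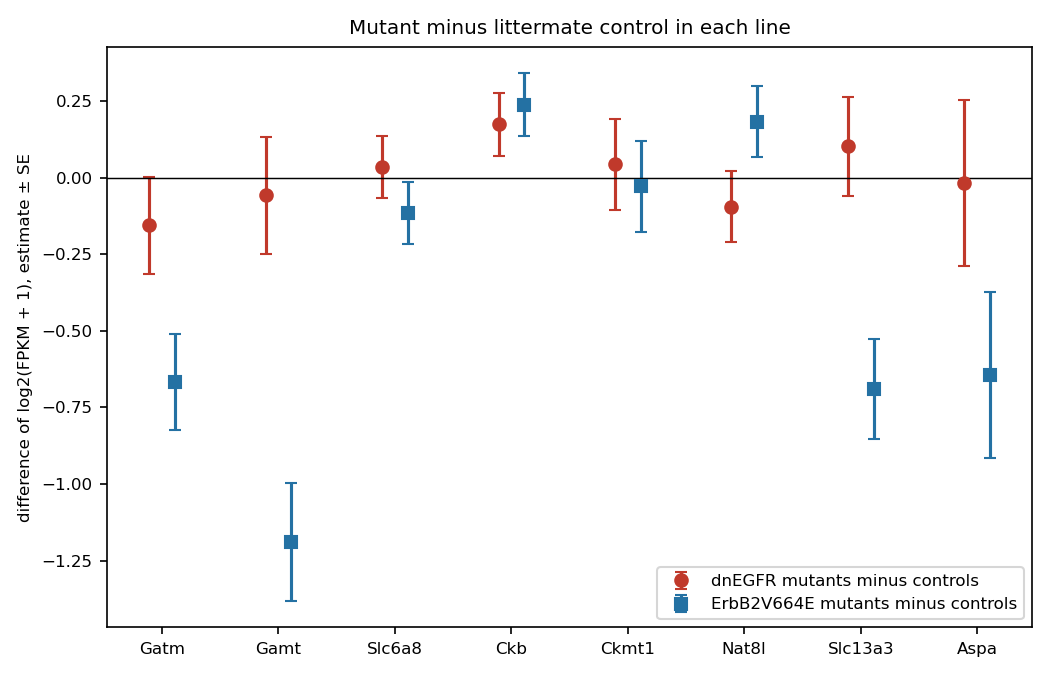
Difference of log2(FPKM + 1), mutants minus littermate controls, for the 8 genes in the dnEGFR line (circles) and the ErbB2V664E line (squares); bars are SE of the fit over all 12 libraries. Gamt reaches -1.19 in the ErbB2V664E line and -0.06 in the dnEGFR line, and the 8 dnEGFR values lie between -0.16 and 0.17.

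The dnEGFR comparison was not part of the rule that picked the genes. None of the 8 was called there, where few loci were called at all. With limma's moderated test over all loci, 0 of the 8 genes had an adjusted p below 0.05, where 0.0942% of the 13803 loci did, and 0 of the 8 had an unadjusted p below 0.05, where 5.69% of loci did. In 0 of the 8 did the groups separate, against 5.58% of loci with all mutants higher and 4.57% with all mutants lower.

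Gamt was at 4.73, 4.68 and 5.36 FPKM in dnEGFR mutants, against 5.24, 4.53 and 5.77 FPKM in their controls. The groups overlapped fully, with a log2 difference of -0.06 (95% interval -0.49 to 0.37, adjusted p by limma = 1). Gatm was at 19.2, 17.1 and 19.9 FPKM in dnEGFR mutants, against 18.7, 19.9 and 24.8 FPKM in controls (log2 difference -0.16, interval -0.51 to 0.19). Slc6a8 was at 12.3, 12.01 and 10.9 FPKM in mutants, against 12.5, 10.4 and 11.4 FPKM in controls (0.04, interval -0.19 to 0.26). None of the 3 genes for making or importing creatine showed a side that all litters shared.

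Ckb was higher in each of the 3 dnEGFR litters, at 359, 292 and 340 FPKM in mutants, against 271, 283 and 323 FPKM in controls. The groups still overlapped, and the log2 difference of 0.17 (interval -0.05 to 0.40) did not pass the test by limma (adjusted p = 0.953). Ckmt1 was at 35.7, 49.4 and 41.9 FPKM in dnEGFR mutants, against 46.4, 33.3 and 43.5 FPKM in controls, a difference of 0.04 (interval -0.29 to 0.37). Nat8l was at 17.4, 21.4 and 18.1 FPKM in mutants, against 20.9, 19.3 and 20.6 FPKM in controls, a difference of -0.09 (interval -0.35 to 0.16). Aspa was at 3.70, 3.07 and 3.84 FPKM in mutants, against 3.79, 2.38 and 4.93 FPKM in controls, and its difference of -0.02 had the widest interval of the 8, from -0.62 to 0.59. Slc13a3 was higher in each of the 3 mutants than in its littermate, at 1.13, 1.65 and 1.51 FPKM in mutants, against 1.10, 1.47 and 1.22 FPKM in controls. Its difference of 0.10 (interval -0.26 to 0.46) did not pass the test (adjusted p = 1). With 1 library left out, the difference ran from -0.24 to -0.04 for Gatm, 0.11 to 0.26 for Ckb, -0.18 to -0.04 for Nat8l and 0.04 to 0.20 for Slc13a3. The intervals show that the test could not tell differences of these sizes from 0, which does not make the groups alike.

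The controls of the lines were not at the same level for Gamt. Gamt was at 8.60 to 12.1 FPKM in ErbB2V664E controls and 4.53 to 5.77 FPKM in dnEGFR controls. The ErbB2V664E mutants, at 2.67 to 5.33 FPKM, overlapped with both dnEGFR groups, so ErbB2V664E controls were the 1 group of the 4 that stood apart from the rest for Gamt. For Gatm, ranges of groups next to each other in level overlapped throughout. Ckb split by line: ErbB2V664E mutants were highest, then ErbB2V664E controls, and dnEGFR mutants and dnEGFR controls overlapped well below at 271 to 359 FPKM. Aspa ran in the other direction, with the lowest mean in ErbB2V664E mutants (1.20 ± 0.387 FPKM), then ErbB2V664E controls (2.54 ± 1.21 FPKM), dnEGFR mutants (3.54 ± 0.414 FPKM) and dnEGFR controls (3.70 ± 1.28 FPKM), each overlapping with the next. Groups next to each other in level also overlapped for Slc6a8, Ckmt1, Nat8l and Slc13a3. Between the control groups, Gamt, Ckb and Slc13a3 were higher in all ErbB2V664E controls than in all dnEGFR controls, as were 21.6% of all tested loci. None of the 8 was lower in all ErbB2V664E controls, as 19.8% of loci were. Line, age and days of doxycycline cannot be told apart in this comparison. The lines also differed widely at the locus Gm28661. It was at 5589 to 6563 FPKM in the ErbB2V664E line and at most 0.000146 FPKM in the dnEGFR line. The source of that difference was not tested.

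The promoters of the 4 genes whose ErbB2V664E groups did not overlap are printed here because 3 of these genes were low together and Ckb was high in the same libraries. RefSeq (GRCm38.p6) gave a window for 6 of the 8 genes, from 250 bases before the transcript start to 50 bases after it. Capitals mark matches on either strand to the GC box GGGCGG, the motif CCAAT, the TATA box TATAAA or the SOX factor motif ACAAAG. The sequences read 5′ to 3′ on the gene's strand.
Gamt, chr10:80260963-80261262, minus strand: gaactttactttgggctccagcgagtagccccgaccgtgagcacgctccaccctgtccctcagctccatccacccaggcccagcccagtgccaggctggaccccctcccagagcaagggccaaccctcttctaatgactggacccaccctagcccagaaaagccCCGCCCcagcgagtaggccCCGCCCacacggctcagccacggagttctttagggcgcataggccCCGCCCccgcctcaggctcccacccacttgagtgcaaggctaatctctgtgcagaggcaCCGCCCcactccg
Gatm, chr2:122611228-122611527, minus strand: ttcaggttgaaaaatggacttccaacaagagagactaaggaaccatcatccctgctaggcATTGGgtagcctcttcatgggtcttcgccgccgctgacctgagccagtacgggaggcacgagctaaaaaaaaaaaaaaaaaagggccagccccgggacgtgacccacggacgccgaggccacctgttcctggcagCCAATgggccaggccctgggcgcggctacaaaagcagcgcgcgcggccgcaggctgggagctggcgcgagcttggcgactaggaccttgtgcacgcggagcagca
Slc13a3, chr2:165473148-165473447, minus strand: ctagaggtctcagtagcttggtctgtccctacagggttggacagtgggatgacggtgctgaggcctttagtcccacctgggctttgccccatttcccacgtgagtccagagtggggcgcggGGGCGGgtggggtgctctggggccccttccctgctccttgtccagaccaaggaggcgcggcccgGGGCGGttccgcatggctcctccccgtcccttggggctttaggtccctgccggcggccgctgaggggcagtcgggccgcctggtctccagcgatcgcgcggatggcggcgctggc
Ckb, chr12:111672289-111672588, minus strand: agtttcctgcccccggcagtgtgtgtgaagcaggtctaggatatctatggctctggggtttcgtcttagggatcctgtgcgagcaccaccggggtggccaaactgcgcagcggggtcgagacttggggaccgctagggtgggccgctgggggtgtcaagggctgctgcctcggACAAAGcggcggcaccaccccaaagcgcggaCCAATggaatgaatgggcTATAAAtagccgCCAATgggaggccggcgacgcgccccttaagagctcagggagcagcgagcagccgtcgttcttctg
Gamt held 4 GC boxes, all read on the opposite strand, and Slc13a3 held 2, while neither had a match to the other 3 motifs. Gatm held 2 CCAAT motifs. Ckb, which was high and not low, held 2 CCAAT motifs, 1 TATA box and 1 SOX motif. No match overlapped another in these 4 windows. Of 32851 promoter windows of the same length, 35.7% held a GC box, 37.4% a CCAAT motif, 13.6% a TATA box and 18.7% the SOX motif. The 4 windows were rich in G and C, at 60.7% to 69.3% against a median of 52.7% over all windows. No motif was shared by the 3 genes with low values. Other short patterns were also looked at and these 4 were kept after the matches had been seen, so the matches describe the sequence and nothing more.

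Gamt and Gatm were next set beside the markers of the cells of the tissue, because Sox10-tTA acts in the oligodendrocyte lineage. In this bulk tissue fewer cells of a type and less RNA per cell cannot be told apart. In the ErbB2V664E line, 9 of 9 mature oligodendrocyte markers had a lower mean in mutants, and their summed level was 715 to 1167 FPKM in mutants and 1190 to 1924 FPKM in controls. All 6 newly formed oligodendrocyte markers had a lower mean too, with sums of 24.2 to 39.3 FPKM in mutants and 48.7 to 71.1 FPKM in controls. For 5 of the 6 all mutants lay below all controls. Gpr17 was higher in 2 of 3 litters, and its controls were at 0.501, 0.323 and 4.26 FPKM. The 5 precursor markers also had a lower mean, with sums of 24.8 to 28.1 FPKM in mutants and 28.1 to 34.9 FPKM in controls. Only Pdgfra had all mutants below all controls. Cspg4 was at 99.2% of the control mean and higher in 2 of 3 litters. In the dnEGFR line the mature markers summed to 1099 to 1301 FPKM in mutants and 1064 to 1254 FPKM in controls, and 6 of 9 had a lower mean in mutants. Cldn11 was at 143, 119 and 34.1 FPKM in dnEGFR mutants, against 37.7, 31.9 and 45.0 FPKM in controls. Ermn was at 42.5, 30.9 and 38.0 FPKM in mutants, against 2.75, 2.36 and 40.4 FPKM in controls. Their part in this sum was not tested. Of the 6 newly formed markers 4 had a lower and 2 a higher mean there, and 2 had all mutants below all controls.

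The markers of other cells moved as well. Astrocyte markers summed to 199 to 230 FPKM in ErbB2V664E mutants and 239 to 417 FPKM in controls, with 5 of 7 lower and 2 higher. Gfap, the astrocyte intermediate filament, averaged 33.0 ± 4.76 FPKM in mutants and 49.9 ± 12.3 FPKM in controls. Its groups overlapped, at 28.0 to 37.5 FPKM in mutants and 36.2 to 60.0 FPKM in controls. Neuron markers lay the other way, at 614 to 667 FPKM in ErbB2V664E mutants and 514 to 591 FPKM in controls, with 6 of 8 higher. Microglia markers were lower in 6 of 6, at 36.1 to 63.3 FPKM in mutants and 59.6 to 81.3 FPKM in controls. Red blood cell markers were lower in 5 of 5, at 22.1 to 118 FPKM in mutants and 95.5 to 214 FPKM in controls. Ependymal markers were lower in 4 of 4, at 12.2 to 18.6 FPKM in mutants and 16.2 to 24.96 FPKM in controls, and choroid plexus markers in 4 of 4, at 10.1 to 627 FPKM in mutants and 243 to 558 FPKM in controls. Endothelial markers had a higher mean in 5 of 5, with sums of 44.7 to 49.1 FPKM in mutants and 31.3 to 42.1 FPKM in controls. Among them only Cldn5 had all mutants above all controls, and the other endothelial markers each overlapped. Cldn5 was at 13.04 to 14.8 FPKM in ErbB2V664E mutants, against 10.8, 11.4 and 0 FPKM in controls 1, 2 and 3. Its part in the endothelial sum was not tested. Of 5 striatal neuron markers 4 were lower, and of 4 mural markers 2 were lower. The dnEGFR groups overlapped in each of these sums, although 5 of 5 red blood cell markers had a higher mean in dnEGFR mutants (115.7 to 279 FPKM in mutants and 126 to 155 FPKM in controls), as did 5 of 5 striatal neuron markers (69.4 to 261 FPKM in mutants and 75.5 to 89.0 FPKM in controls). Choroid plexus markers were lower in 4 of 4 and mural markers in 4 of 4 there. Of all markers, Cldn5 was listed at 0 in at least 1 library of each line. The part of these shifts in the levels of the 8 genes was not tested.

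Set against oligodendrocyte markers, Gatm overlapped between the ErbB2V664E groups, while the result for Gamt turned on which marker was used. Per 1000 FPKM of the 9 mature markers, Gamt stood at 3.64 to 4.57 in ErbB2V664E mutants and 5.31 to 7.23 in controls, with means of 3.98 ± 0.51 in mutants and 6.28 ± 0.96 in controls. The groups did not overlap. Mbp alone made up 38.7% to 60.8% of the marker sum in a library, however, and without Mbp the Gamt ratio overlapped, at 6.96 to 9.51 in mutants and 9.09 to 14.3 in controls. Per single marker, Gamt was lower in all mutants for 4 of 9 markers and overlapped for the other 5; per 1000 FPKM of Mag it was at 78.3 to 89.5 in mutants and 83.5 to 106 in controls. These divisors were added after the values were seen. Among them, Cldn11 and Ermn varied widely within the mutant group, and Cldn11 within the controls too. Cldn11 was at 142, 19.2 and 139 FPKM in ErbB2V664E mutants 1, 2 and 3, against 224, 36.2 and 243 FPKM in controls. Ermn was at 36.3, 14.6 and 0.731 FPKM in mutants, against 40.7, 38.5 and 45.6 FPKM in controls. Their part in the sum without Mbp and in the overlaps per marker was not tested. Gatm per 1000 FPKM of the 9 mature markers stood at 14.5 to 19.0 in mutants and 14.4 to 19.3 in controls, which is full overlap. Its means were 16.9 ± 2.21 in mutants and 16.4 ± 2.57 in controls. Per single marker it overlapped for 7 of 9 and was higher in all mutants for 2. Slc13a3 was at 0.893 ± 0.111 in mutants and 1.26 ± 0.06 in controls, again without overlap and also without Mbp in the sum, but per single marker it was lower in all mutants for 3 of 9 and overlapped for 6. Aspa was at 1.24 ± 0.13 in mutants and 1.53 ± 0.417 in controls, and the ranges overlapped, as they did for each of the 9 markers. In the dnEGFR line, Gamt per 1000 FPKM of markers was 4.25 ± 0.619 in mutants and 4.54 ± 0.259 in controls. Cldn11 and Ermn were uneven within that line too, and their part in this ratio was not tested.

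**Figure D3:**
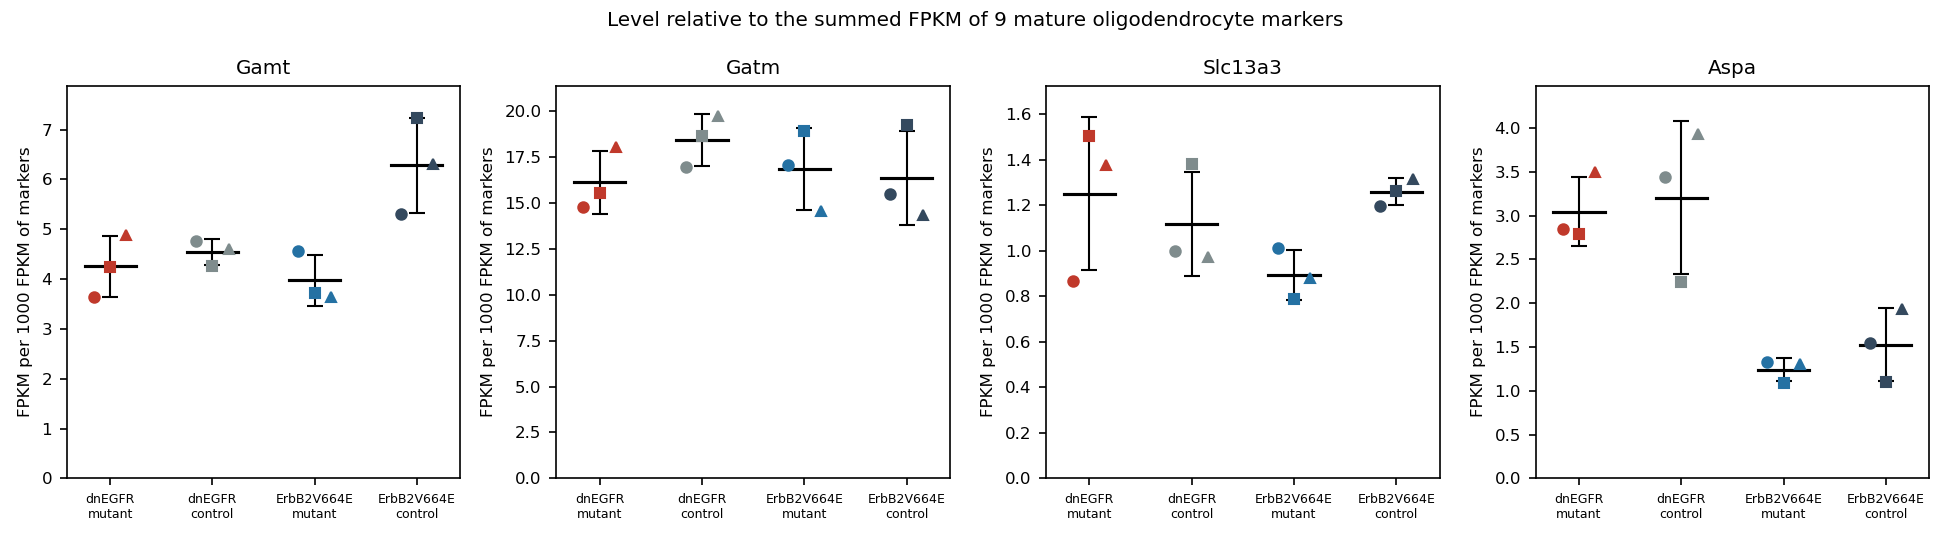
FPKM of Gamt, Gatm, Slc13a3 and Aspa per 1000 FPKM summed over 9 mature oligodendrocyte markers, in each library, with mean and SD of 3 mice a group; circles, squares and triangles mark litters 1, 2 and 3. With this sum the ErbB2V664E groups separate for Gamt (3.64 to 4.57 in mutants and 5.31 to 7.23 in controls) and Slc13a3 and overlap for Gatm and Aspa; without Mbp in the sum the Gamt groups overlap.

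The loci most like Gamt over the 12 libraries included a myelin gene. Likeness was the root mean square difference of log2(FPKM + 1) after centring, among 4110 loci with 1 symbol whose SD was at least 0.75 times that of Gamt. The 5 nearest were Micall1 at 0.197, Itgb4 at 0.206, Plekhh1 at 0.206, Mag at 0.227 and Slc6a9 at 0.229. Mag encodes myelin-associated glycoprotein, Itgb4 an integrin subunit and Slc6a9 a glycine transporter. Mag was at 44.5 ± 13.4 FPKM in ErbB2V664E mutants and 103 ± 14.6 FPKM in controls. Of the other 7 genes described here, Gatm at 0.248 and Slc13a3 at 0.264 came nearest to Gamt, and Ckb at 0.625 was the farthest. The limit on the SD was not applied to these 7 genes. Gatm (SD 0.303) and Slc13a3 (SD 0.309) were below it, where Gamt had an SD of 0.505. The 12 libraries share their groups, so the values of likeness describe the pattern of group means more than covariation among mice.

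**Figure D4:**
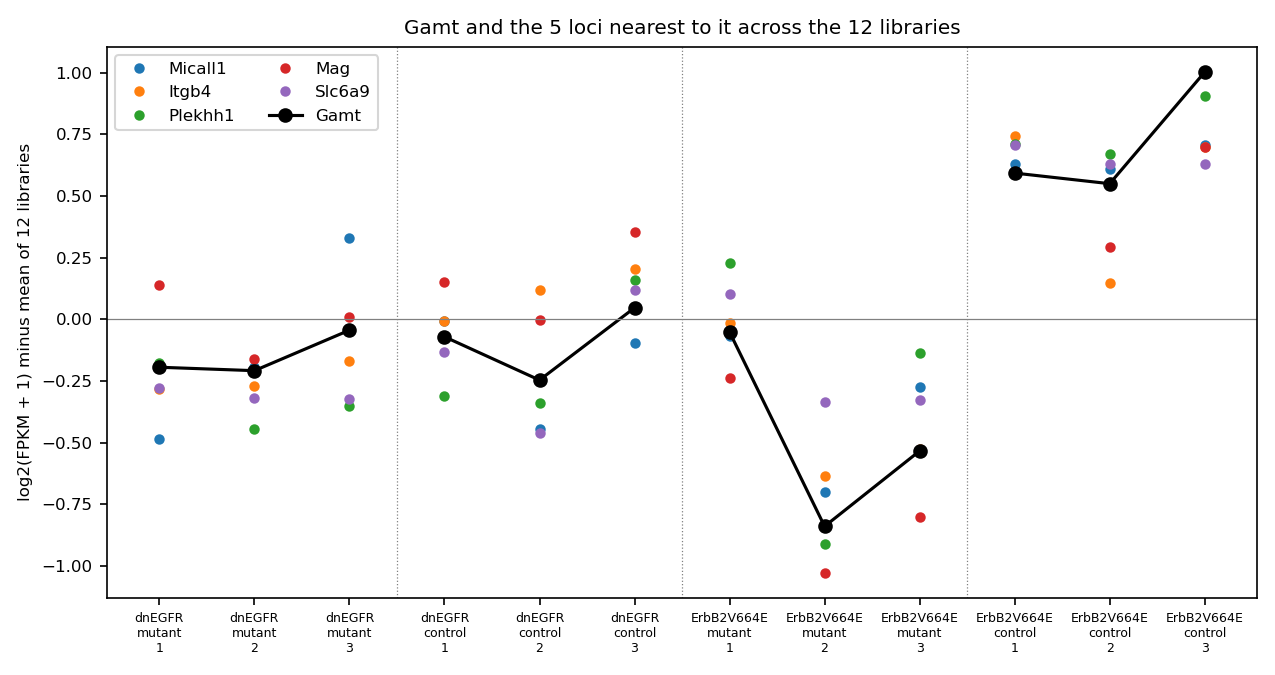
log2(FPKM + 1) minus the mean of the 12 libraries, for Gamt (black) and the 5 loci nearest to it, by library in group order. The ErbB2V664E controls are above all other libraries for each locus except Itgb4 and Mag, where dnEGFR control 3 is above ErbB2V664E control 2, and ErbB2V664E mutant 2 has the lowest Gamt of the 12 libraries.

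The genes around these pathways were then counted. Of 52 genes in 8 lists (other creatine kinases and transporters, the methyl donor cycle, arginine and ornithine use, glycine supply, N-acetylaspartylglutamate and acylases, aspartate supply, acetate use and adenylate kinases), 44 passed the filter. Ckm and Ckmt2, the muscle-type creatine kinases, Slc16a12 and Slc6a13 did not, so the list of other creatine kinases and transporters held no tested gene. By limma over all loci, 0 of 44 were called in the dnEGFR comparison, where 1 was lower and 1 higher at an unadjusted p below 0.05; over all loci 0.0942% were called and 5.69% had such a p. In the ErbB2V664E comparison 0 of 44 were called, and 6 were lower and 2 higher at an unadjusted p below 0.05, where 0.275% of all loci were called and 12.1% had such a p. The median log2 change was 0.03 in the dnEGFR line and 0.06 in the ErbB2V664E line, beside 0.01 and 0.00 over all tested loci. Groups did not overlap for 6 of the 44 higher and 1 lower in the dnEGFR line, where 5.58% and 4.57% of all loci did so. In the ErbB2V664E line the counts were 4 higher and 5 lower of 44, beside 9.28% and 8.96% of all loci.

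Gamt takes its methyl group from the methyl donor cycle. Its list had 8 of 11 genes with a positive and 3 with a negative difference in the ErbB2V664E line (median 0.15), and 7 and 4 in the dnEGFR line (median 0.09). Mat2a, which makes S-adenosylmethionine, was at 14.3 ± 4.74 FPKM in ErbB2V664E mutants and 19.5 ± 7.71 FPKM in controls, a log2 difference of -0.39 (adjusted p by limma = 0.667); it ran from -0.75 without control 2 to -0.11 without mutant 2. Ahcyl1, which resembles the enzyme that clears S-adenosylhomocysteine, was at 48.2 ± 2.45 FPKM in ErbB2V664E mutants and 45.9 ± 4.15 FPKM in controls (0.07, adjusted p = 0.942). Ahcy, the enzyme itself, was picked after its values were seen: it was at 5.93 ± 0.208 FPKM in ErbB2V664E mutants and 4.37 ± 0.44 FPKM in controls, without overlap, and did not pass the test (0.37, adjusted p = 0.123). In the dnEGFR line Ahcy was also without overlap, at 5.93 ± 0.451 FPKM in mutants and 5.24 ± 0.0922 FPKM in controls. Mat2a differed by 0.10, Ahcyl1 by 0.25 and Ahcy by 0.15 in the dnEGFR line, with adjusted p of 1, 0.987 and 0.942. For Ahcyl1 this was 0.06 without control 3 and 0.55 without control 2.

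Arginine and glycine are the substrates of Gatm, whose other product is ornithine. Of the arginine and ornithine genes, 2 of 7 had a positive difference in the ErbB2V664E line (median -0.10) and 5 of 7 in the dnEGFR line (median 0.07). Oat, which degrades ornithine, was at 16.3 ± 1.07 FPKM in dnEGFR mutants and 12.8 ± 1.67 FPKM in controls, without overlap, yet did not pass the test over all loci (0.33, adjusted p by limma = 0.865). In the ErbB2V664E line it was at 8.03 ± 1.56 FPKM in mutants and 9.41 ± 0.873 FPKM in controls (-0.22, adjusted p = 0.587). Odc1, which turns ornithine into putrescine, differed by 0.07 in the dnEGFR line and -0.10 in the ErbB2V664E line.

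Of the glycine genes, 4 of 6 had a negative difference in the ErbB2V664E line (median -0.26), and 3 of 6 in the dnEGFR line (median 0.00). Slc6a9, also among the loci most like Gamt, was at 6.18, 4.29 and 4.32 FPKM in ErbB2V664E mutants, against 9.89, 9.33 and 9.33 FPKM in controls. All mutants lay below all controls, but the log2 difference of -0.84 (SE 0.15) missed the threshold over all loci by limma (adjusted p = 0.0676); without mutant 1 it was called. Its difference in the dnEGFR line was -0.15 (adjusted p = 0.992). Gcsh, a part of the glycine cleavage system, was at 11.0 ± 3.78 FPKM in ErbB2V664E mutants and 14.0 ± 1.63 FPKM in controls (-0.37, adjusted p = 0.51). Dld, the dehydrogenase subunit of that system and of other complexes, was at 14.6 ± 0.55 FPKM in ErbB2V664E mutants and 13.7 ± 1.44 FPKM in controls (0.09, adjusted p = 0.828).

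Of the N-acetylaspartylglutamate and acylase genes, 5 of 7 had a positive difference in the ErbB2V664E line (median 0.07) and 3 of 7 in the dnEGFR line (median -0.02). Grm3, a glutamate receptor that N-acetylaspartylglutamate activates, was at 10.9, 5.85 and 6.72 FPKM in ErbB2V664E mutants, against 12.9, 12.1 and 12.3 FPKM in controls. Mutants 2 and 3 were far below the controls and mutant 1 was near them, and the log2 difference of -0.65 did not pass the test by limma (adjusted p = 0.212), whereas it did without mutant 1 (-0.88, adjusted p = 0.0267). Over the 14 alternatives tried the adjusted p of Grm3 ran from 0.0267 to 0.54. Rimklb, a ligase that makes N-acetylaspartylglutamate, was at 2.80 ± 0.88 FPKM in ErbB2V664E mutants and 2.63 ± 0.319 FPKM in controls. In the dnEGFR line Grm3 differed by 0.02 and Rimklb by -0.05.

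Aspartate is the other substrate of Nat8l. Got1 and Got2, the aspartate aminotransferases of cytosol and mitochondria, were at 61.7 ± 4.77 and 41.5 ± 4.90 FPKM in ErbB2V664E mutants and at 58.5 ± 5.03 and 37.8 ± 3.09 FPKM in controls. Neither passed the test, with log2 differences of 0.08 and 0.13 there and of 0.03 and 0.02 in the dnEGFR line. The acetate that Aspa releases can be used for lipid synthesis. All 4 acetate genes had a negative difference in the ErbB2V664E line (median -0.20) and 3 of 4 a positive one in the dnEGFR line (median 0.11), none called by the test. Acly, which makes acetyl-CoA from citrate, was at 25.8 ± 2.07 FPKM in ErbB2V664E mutants and 28.0 ± 2.76 FPKM in controls, and at 29.4 ± 2.44 FPKM in dnEGFR mutants and 25.02 ± 0.913 FPKM in dnEGFR controls. Slc16a1, a monocarboxylate transporter, was at 4.38 ± 0.378 FPKM in ErbB2V664E mutants and 5.39 ± 0.499 FPKM in controls (-0.25, adjusted p by limma = 0.788).

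The adenylate kinases, which move phosphate between nucleotides, had 4 of 5 positive differences in the ErbB2V664E line (median 0.07) and 2 of 5 in the dnEGFR line (median -0.31). None was called. Ak1 was at 22.9 ± 4.64 FPKM in ErbB2V664E mutants and 20.3 ± 5.08 FPKM in controls. Ak5 was at 18.3 ± 0.612 FPKM in ErbB2V664E mutants and 18.1 ± 1.63 FPKM in controls, and at 12.8 ± 3.27 FPKM in dnEGFR mutants and 16.7 ± 3.94 FPKM in dnEGFR controls (-0.36, adjusted p by limma = 0.942).

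**Figure D5:**
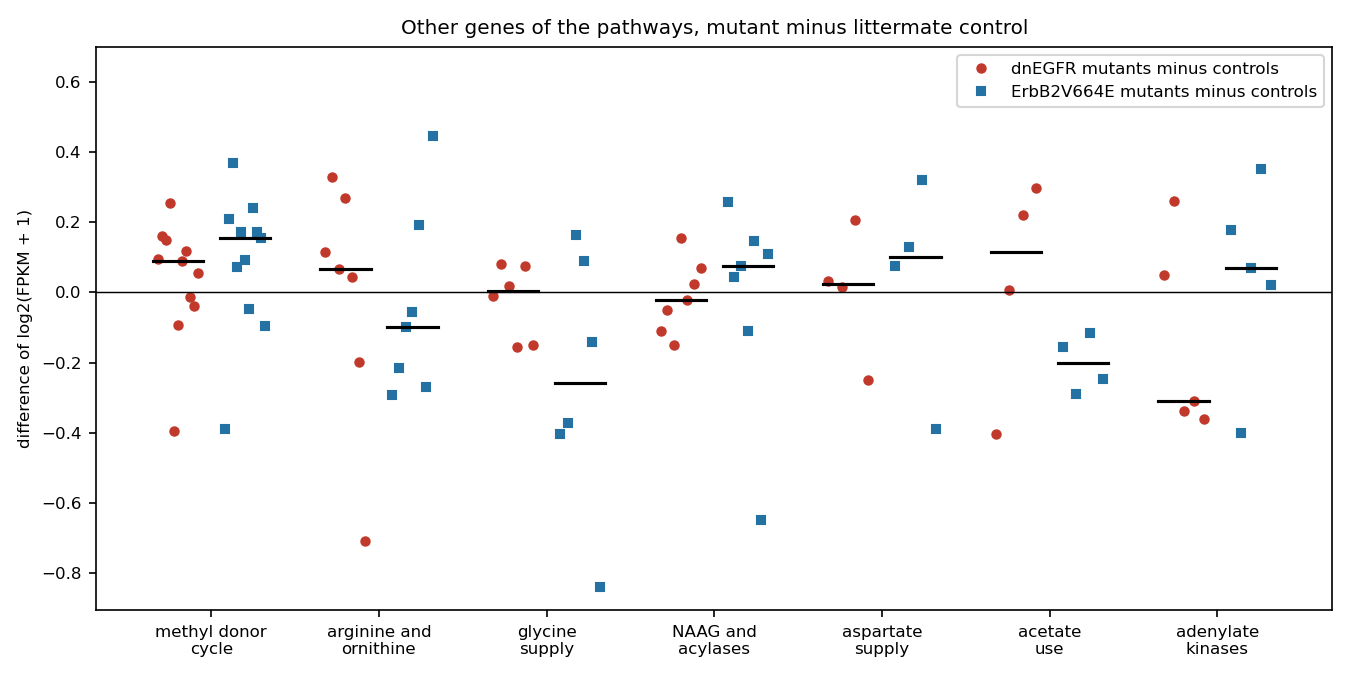
Difference of log2(FPKM + 1), mutants minus littermate controls, for the 44 tested genes of 7 lists around the creatine and N-acetylaspartate pathways (circles, dnEGFR line; squares, ErbB2V664E line; lines, medians of a list). The lowest point is Slc6a9 in the ErbB2V664E line at -0.84, and no point passed the test over all loci.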

How the data were processed

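RNA was measured in subcortical white matter of 12 mice, 1 library a mouse. Per the labels' protocols, poly(A) RNA was fragmented, reverse transcribed with random hexamers and read from both ends on an Illumina HiSeq4000. The deposited values are FPKM that the authors took from StringTie, per the series' design; HISAT is also named, per the submitters' processing notes. The sources used here give no version, genome build or annotation. No strand-keeping step is described, so reads of Ckmt1 and Strc, and of Slc13a3 and Gm14437, which overlap on opposite strands, cannot be told apart. Uneven assembly of a locus may add to the spread between mice.

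From these values log2(FPKM + 1) was computed and tested with limma 3.58.1 in R 4.3.3: 1 mean per group over 12 libraries, variance trend, two-sided, 8 residual and 2.03 prior degrees of freedom, p adjusted by Benjamini and Hochberg over the 13803 loci at 1 FPKM or more in at least 3 libraries. Depth was estimated from the steps between low values of 14221 loci with 1 transcript, with a tolerance of 0.02 fragments, and is approximate; counts were not recovered and no count test was run. Promoters came from RefSeq, transcript lengths and overlaps from GENCODE. Python 3.11.15 (numpy 2.4.6, pandas 2.3.3, matplotlib 3.10.9) served for tables and plots. The model was run on simulated data with known changes.

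The labels name each control as the littermate of a numbered mutant, so the numbers pair the libraries within 6 litters. Deviations from the group means correlated by 0.02, 0.01, 0.03, 0, 0.01 and -0.03 within these pairs.

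The 8 genes, the gene lists and the marker lists were chosen with earlier results of these data known. The text names the 8 genes, every list gene past the threshold and the 2 tested genes of each list with the highest mean FPKM. It also names the 5 loci most like Gamt and 3 marker genes. Cldn5 was named because it was listed at 0. Ahcy, Cldn11, Ermn, Gpr17, Pdgfra, Cspg4 and Gm28661 were named after their values were seen. Alternatives were another pseudocount, other filters, median ratio scaling, a litter block, a fit per line, no variance trend, summed loci, each library left out and, chosen after seeing the data, other marker divisors.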

Additional observations from a re-analysis of the deposited data

Results flagged for a closer look

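Slc13a3 lay on opposite sides of its controls in the lines: all 3 ErbB2V664E mutants were below their littermates and all 3 dnEGFR mutants above theirs. The ErbB2V664E change minus the dnEGFR change was -0.79 on the log2 scale, and the ErbB2V664E change alone was -1.15 instead of -0.69 with a pseudocount of 0.1; the difference was not tested, because the ErbB2V664E comparison was used to pick the genes. The level of Slc13a3 was low, at 0.564 to 2.53 FPKM.

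Dld also lay on opposite sides, above the littermate in all 3 ErbB2V664E litters and below it in all 3 dnEGFR litters. Its groups overlapped in both lines, and the ErbB2V664E mutants were at 102%, 103% and 116% of their littermates. The difference of the changes was 0.25 and did not pass the test by limma (adjusted p = 0.713).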

How the results depend on the processing

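With litter as a replicate block the calls over all loci were 3 in the dnEGFR line and 7 in the ErbB2V664E line, against 13 and 38 without it, and no gene of the 8 was called. Fitting each line alone gave 24 and 25 calls, and a filter of 5 FPKM gave 7 in the ErbB2V664E line. Leaving out 1 library gave 16 to 34 calls in the dnEGFR line and 12 to 235 in the ErbB2V664E line. Among the 8 genes, 1 was called in the ErbB2V664E line, as were 0.275% of all loci. This was Gamt, by which the genes were chosen, so the count is not a test of them. The count was 0 with no filter, the filter of 5 FPKM, the replicate block and the line alone, and 0 to 2 with a library left out. Calls among the 44 other pathway genes were 0 to 2 there with a library left out. The Gamt difference in the ErbB2V664E line lay between -1.40 and -1.01 over 14 alternatives. That of Slc13a3 was -1.15 with a pseudocount of 0.1. Aspa, Slc13a3 and Rimklb fell below the filter of 5 FPKM and have no value under it. The causes of these shifts were not tested.

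Differences that were not called changed sign with a library left out. In the dnEGFR line the ranges were -0.14 to 0.0097 for Gamt, -0.027 to 0.095 for Slc6a8, -0.10 to 0.16 for Ckmt1, -0.24 to 0.17 for Aspa, -0.017 to 0.16 for Mat2a, -0.13 to 0.046 for Rimklb, -0.12 to 0.13 for Grm3, -0.057 to 0.12 for Got1, -0.065 to 0.096 for Got2, -0.093 to 0.57 for Slc16a1 and -0.16 to 0.26 for Ak1. In the ErbB2V664E line they were -0.14 to 0.17 for Rimklb, -0.0028 to 0.35 for Ak1 and -0.047 to 0.075 for Ak5, and the untested value of Ckmt1 ran from -0.075 to 0.036. Depth limits Gamt, Aspa and Slc13a3 most.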
